A study of Mus musculus with 12 samples.

Results

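The genes described here are those whose mRNA fell in CT26 cells, a mouse colon carcinoma line, when IFN-γ was added to the medium. They were chosen from these same data. A gene was taken if its mean was at least 1 TPM (a transcript level scaled for gene length and to a fixed total per library) over all 12 libraries, if the mean of log2(TPM + 1) was at least 0.7 lower with IFN-γ than with no treatment, and if each of the 3 IFN-γ libraries was below each of the 3 untreated ones. Collagen, laminin, claudin, S100, solute carrier, NADH dehydrogenase, cytochrome oxidase, ATP synthase and ribosomal protein symbols were left out, as were IFI27 and CCL9. This gave 81 genes of 23636 symbols in the table, of which 10754 reached 1 TPM. CT26 cells were left without treatment or received recombinant CX3CL1 (2 µg/ml), IFN-γ (100 ng/ml) or both (CX3CL1+IFN-γ) for 8 hours, with 3 biological replicates in each of the 4 groups. Doses and time are those of the study's figure legend, while its running text names TNF-α beside IFN-γ, given ahead of CX3CL1. The labels name no TNF-α, and they are followed here. All groups are the same unmodified line in culture, so each result is about 1 cell line at 1 time and 1 dose of each agent. The values are relative: a lower TPM is a smaller share of the mRNA, and less mRNA per cell, or fewer cells of a kind, cannot be told apart from it.

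IFN-γ is a cytokine of T and NK cells. It binds its receptor, activates the kinases JAK1 and JAK2, and acts through DNA elements called GAS. It is known mostly for the genes it induces, among them those of antigen presentation, and less for the genes it lowers. A group of the genes described below make cholesterol. In that pathway acetyl-CoA units are joined into HMG-CoA and mevalonate, mevalonate is turned into isopentenyl units, these are joined into squalene, and squalene is closed into lanosterol and trimmed to cholesterol. The transcription factor SREBP-2, encoded by SREBF2, drives the genes of the pathway when sterol is scarce. Its escort SCAP and the anchor INSIG1 hold it in the endoplasmic reticulum when sterol is plentiful.

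CT26 is labelled a tumor cell line, and of 5 epithelial markers KRT18 alone had a mean of at least 1 TPM, while each of the 5 mesenchymal markers (VIM, CDH2, ZEB1, S100A4 and COL1A1) did. The 6 leukocyte markers summed to at most 0.269 TPM and the 3 endothelial markers to at most 0.0725 TPM in any library. The mesenchymal markers summed to between 7794 and 11964 TPM without treatment, 6269 and 9341 TPM with CX3CL1, 3698 and 6577 TPM with IFN-γ, and 2882 and 5627 TPM with both. Nearly all of that sum was VIM, with means of 4174 TPM without treatment and 2899 TPM with IFN-γ, and S100A4, with 5652 and 1932 TPM, which met the rule and was left out by symbol. Without treatment and with IFN-γ, COL1A1 stood at 74.2 and 47.2 TPM, CDH2 at 70.8 and 56.9 TPM, and ZEB1 at 15.6 and 15.4 TPM. With CX3CL1 present, log2(TPM + 1) differences were -1.48 for S100A4, -0.57 for VIM and COL1A1, -0.11 for CDH2 and 0.15 for ZEB1. The part of these markers in the results below was not tested. As a check of the treatment, 16 of 17 tested IFN-γ-induced genes of a fixed list were called higher with IFN-γ + CX3CL1 than with CX3CL1, and none lower. Within the CX3CL1 group, replicates 1 and 3 differed by a median of 0.141 per gene on the log2 scale, and replicate 2 differed from them by 0.280 and 0.277.

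With IFN-γ alone, the fall that chose the 81 genes had a median of -0.90 on the log2(TPM + 1) scale, from -1.81 for GM20594 to -0.70 for GM3716. These values are a description and were not tested. Over the 10754 genes the median was 0.03, on values that sum to the same total in each library. The difference and the separation of the libraries together were met by 95 genes (0.883% of those tested), and 14 of these were left out by symbol, among them S100A4, COL3A1 and CLDN6. A rise of 0.7 or more with the libraries separated was seen in 439 genes. Just inside the threshold lay GM3716 (-0.70), CRIM1 (-0.70) and LACTB2 (-0.72), and just outside it DBP, MID2 and CCAR1 (each -0.69). Untreated means of the 81 ran from 2.22 to 864 TPM with a median of 30.0 TPM, against 26.5 TPM over the genes tested. Of the 81, 24 had an untreated mean under 10 TPM and 16 one of 100 TPM or more. With IFN-γ, 4 had a mean under 1 TPM, and with both agents 6 did. Summed, the 81 genes took 5111 to 6275 TPM in the untreated libraries, 4318 to 5685 TPM with CX3CL1, 2785 to 3065 TPM with IFN-γ and 2590 to 3098 TPM with both. The sums with both agents did not overlap those with CX3CL1. Between the IFN-γ and untreated libraries the sums could not overlap, by the choice of the genes.

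**Figure D1:**
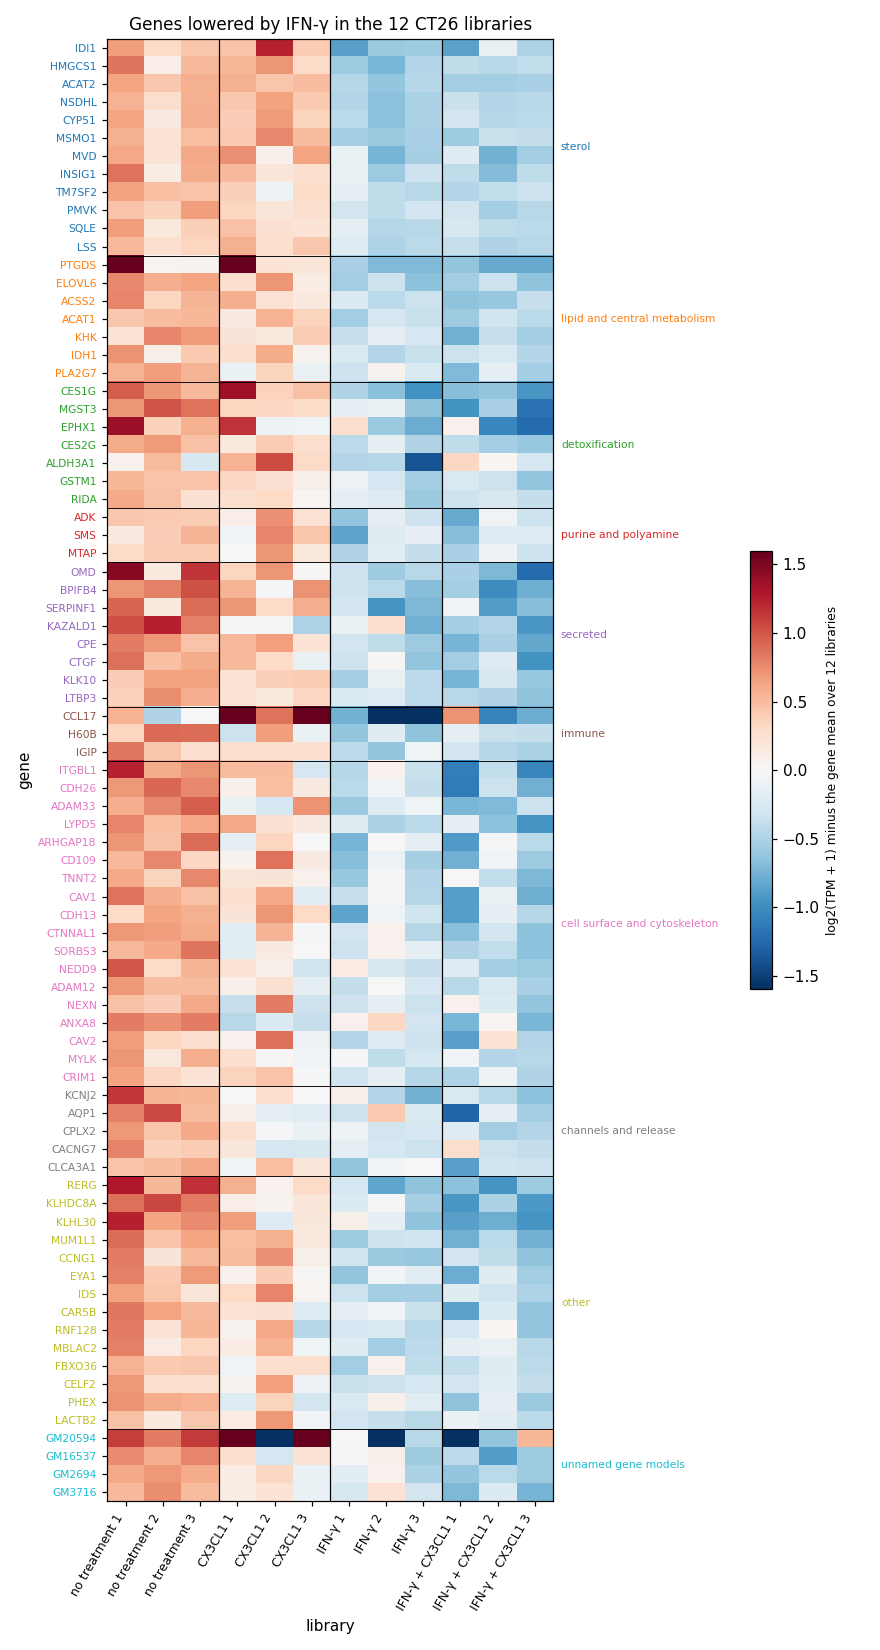
Heat map of the 81 genes (rows, grouped by role and coloured by it) in the 12 libraries (columns), as log2(TPM + 1) minus the mean of the gene over the 12 libraries, with red above and blue below that mean. By the choice of the genes each untreated library is redder than each IFN-γ library, while the 3 CX3CL1 libraries lie above the 3 libraries with both agents for 66 genes.

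The difference and the separation of libraries that chose the genes were taken without the 6 libraries that received CX3CL1. These entered the choice through the floor of 1 TPM alone, which all 81 genes also reached over the 6 untreated and IFN-γ libraries. IFN-γ + CX3CL1 was therefore compared with CX3CL1. Deviations of same-numbered libraries from their group means were also correlated across these 2 sets in 5 of 6 pairs, with correlations across genes of 0.649, 0.677 and 0.685 between IFN-γ and IFN-γ + CX3CL1, and of 0.392, 0.0008 and 0.309 between no treatment and CX3CL1, and the part of this in the results was not tested. In this comparison every one of the 81 genes had a negative difference, against 41.7% of the genes tested. The median was -0.72 on the log2(TPM + 1) scale, against 0.04 over all genes, and the values ran from -2.11 for CCL17 to -0.04 for CACNG7. In 66 of the 81 (81.5%) the 3 libraries with both agents lay below the 3 with CX3CL1, against 5.64% of the genes tested. In limma over all genes, 34 of the 81 (42.0%) were called lower at an adjusted p under 0.05, 0 were called higher and 47 did not pass, while 0.567% of the genes tested were called lower (61 genes) and 2.47% higher (266 genes). At an unadjusted p under 0.05, 72 of the 81 were lower. Libraries with the same replicate number deviated together, and with the replicate number as a block 64 of the 81 (79.0%) were called lower, against 161 genes or 1.50% of those tested, with 545 genes called higher. The 34 were all among the 64. The blocked split moved to 285 lower and 474 higher when the libraries were also scaled by median ratios, an alternative added after seeing the data.

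By numbered pair, the median difference with CX3CL1 present was -0.79, -0.79 and -0.70, and 75 of the 81 genes were lower in 3 of 3 pairs, the other 6 in 2 of 3. Of the 72 genes with a difference of -0.7 or below in this comparison, 44 were among the 81. For 70 of the 81 the difference was smaller in size than that in the libraries that chose them. The genes were taken for a wide fall in those libraries, so this count is a description. Whether CX3CL1 changes the fall was not tested. Across the 81 genes the differences had a Pearson r of 0.686, given as a description since genes of the same libraries are not independent. The number called fell whichever of the 6 libraries was left out, in fits with 1 library fewer. Of the 34 genes, 16, 27 and 17 kept their call without CX3CL1 replicate 1, 2 or 3. Without IFN-γ + CX3CL1 replicate 1, 2 or 3, the call was kept by 21, 21 and 13. The genes called in all 6 such fits were 10: ACAT2, HMGCS1, LSS, CYP51, MSMO1, NSDHL, CPE, MGST3, CES1G and MUM1L1.

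**Figure D2:**
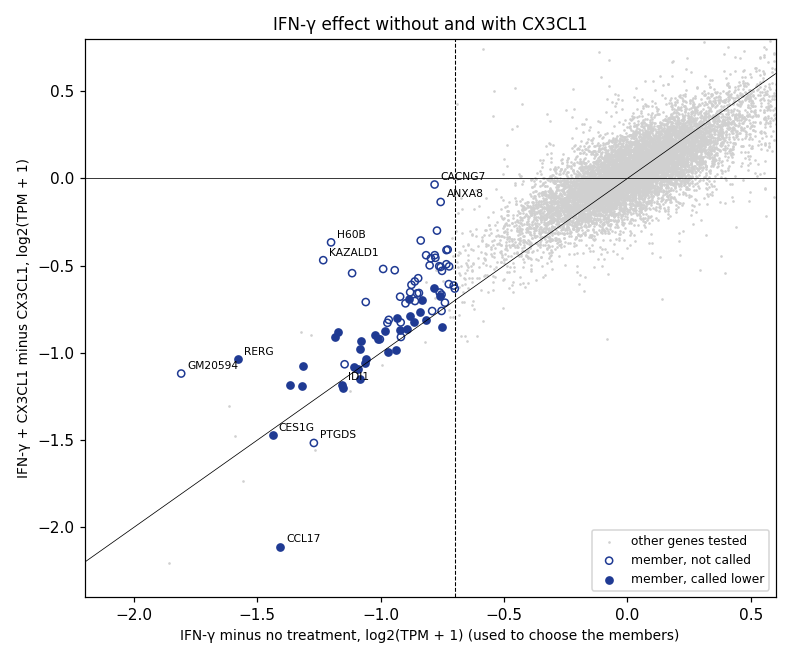
Scatter plot of the difference in group means of log2(TPM + 1), IFN-γ minus no treatment (horizontal axis, used to choose the genes) against IFN-γ + CX3CL1 minus CX3CL1 (vertical axis, not used), with grey points for other genes tested, open circles for the 47 chosen genes not called and filled circles for the 34 called lower. The dashed line is the threshold of -0.7 and the diagonal marks equal differences. The 81 genes lie under 0 on the vertical axis, and 70 of them above the diagonal. Since the genes were chosen on the horizontal axis, their place against the diagonal is a description.

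The 81 genes were grouped by known role once they had been chosen. Sterol synthesis gave 12 of them: ACAT2 and HMGCS1 (acetoacetyl-CoA thiolase and HMG-CoA synthase, which build HMG-CoA), PMVK, MVD and IDI1 (from phosphomevalonate to the isopentenyl units), SQLE and LSS (squalene to lanosterol), CYP51, TM7SF2, MSMO1 and NSDHL (removal of methyl groups from lanosterol and reduction of its ring), and the anchor INSIG1. With CX3CL1 present, the 3 IFN-γ libraries lay below the 3 others for each of the 12, and limma called 11 lower, with a median difference of -0.90 and a range of -1.18 to -0.59. The one not called was TM7SF2 (log2 difference -0.59, SE 0.16, adjusted p = 0.12), which was called with the replicate block (limma adjusted p = 0.036, and 0.017 to 0.35 over its alternatives).

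SREBP-2 acts at the promoters of these genes beside the factor NF-Y, which binds the letters CCAAT. The 250 bases before the RefSeq start (GRCm38.p6) are shown for HMGCS1 and MSMO1, since they are the sterol genes that hold a match to TCACNCCA, a core form of the sterol regulatory element, and for IDI1 and CYP51, as examples that hold CCAAT and no such match. They are chr13:119690101-119690350 on the plus strand, chr8:64733579-64733828 on the minus strand, chr13:8885356-8885605 on the plus strand and chr5:4104698-4104947 on the minus strand, each written 5′ to 3′ along its gene. Capitals mark matches to TCACNCCA or CCAAT on either strand, and in these 4 promoters no match of one overlaps a match of the other.
HMGCS1: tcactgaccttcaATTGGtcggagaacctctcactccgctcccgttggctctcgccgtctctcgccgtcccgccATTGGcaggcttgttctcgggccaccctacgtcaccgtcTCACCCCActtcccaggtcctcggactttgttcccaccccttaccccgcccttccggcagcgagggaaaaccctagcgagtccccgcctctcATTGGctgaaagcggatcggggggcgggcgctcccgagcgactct
MSMO1: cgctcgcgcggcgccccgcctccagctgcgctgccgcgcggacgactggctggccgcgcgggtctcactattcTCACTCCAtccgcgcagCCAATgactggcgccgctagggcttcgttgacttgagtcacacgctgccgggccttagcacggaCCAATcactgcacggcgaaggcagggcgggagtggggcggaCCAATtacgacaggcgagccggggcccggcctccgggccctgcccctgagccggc
IDI1: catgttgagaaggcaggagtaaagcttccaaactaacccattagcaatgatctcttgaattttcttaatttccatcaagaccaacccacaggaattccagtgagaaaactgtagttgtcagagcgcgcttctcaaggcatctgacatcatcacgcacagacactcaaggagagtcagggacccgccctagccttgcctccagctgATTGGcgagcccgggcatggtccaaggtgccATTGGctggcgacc
CYP51: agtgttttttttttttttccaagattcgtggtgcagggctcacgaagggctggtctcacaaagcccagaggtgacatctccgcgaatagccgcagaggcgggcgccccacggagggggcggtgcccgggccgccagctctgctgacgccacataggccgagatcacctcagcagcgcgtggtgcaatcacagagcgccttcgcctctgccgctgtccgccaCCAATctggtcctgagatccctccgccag
In HMGCS1 the match to TCACNCCA starts 137 bases before the start, between CCAAT matches at 176 and 45 bases. In MSMO1 it starts at 177 bases, next to CCAAT matches at 160, 96 and 55 bases. IDI1 holds CCAAT at 45 and 14 bases and CYP51 at 29 bases. Of the 11 sterol genes with a promoter in the RefSeq table, 10 held CCAAT within 250 bases before to 50 after the start, as did 34 of 62 matched genes of the 81 (54.8%), 43.9% of the 8554 matched genes tested and 41.1% of all 27025 genes in the table. The element TCACNCCA was in 2 of the 11, in 4 of the 62 (6.45%), in 4.38% of the genes tested and in 4.97% of all. It was picked after the members were known, and a match is a run of letters, not a site shown to be bound. Other forms of the sterol element were not searched for, so a promoter without a match, such as that of CYP51, may still hold one.

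HMGCS1 was measured at 324, 192 and 255 TPM without treatment, 258, 291 and 220.2 TPM with CX3CL1, 120.3, 107 and 128 TPM with IFN-γ, and 134, 131 and 135 TPM with both. Each library with IFN-γ was below each without it. Between the IFN-γ and untreated libraries the choice of the genes fixed this, for HMGCS1 and for the genes below. The 3 untreated libraries were the more spread, and with CX3CL1 present HMGCS1 was called lower (log2 difference -0.93, SE 0.14, adjusted p = 0.0049, for IFN-γ + CX3CL1 against CX3CL1 in limma, as in all tests below). ACAT2, the step before it, stood at 174, 151 and 167 TPM without treatment, 167, 153 and 158 TPM with CX3CL1, 81.3, 72.2 and 80.97 TPM with IFN-γ, and 76.4, 76.4 and 77.9 TPM with both. It had the smallest SE of the 12 and no overlap (log2 difference -1.04, SE 0.11, adjusted p = 0.0011). MSMO1, a methylsterol oxidase and the most abundant of the group in untreated cells, was at 446, 348 and 418 TPM without treatment, 400.1, 512 and 424 TPM with CX3CL1, 207, 198 and 209 TPM with IFN-γ, and 202, 234 and 230.05 TPM with both. Its levels with IFN-γ fell into 1 narrow band whether or not CX3CL1 was present (log2 difference -0.995, SE 0.14, adjusted p = 0.0041). CYP51, the lanosterol demethylase, was at 304, 217 and 293 TPM without treatment, 259, 316 and 251 TPM with CX3CL1, 146, 124 and 138 TPM with IFN-γ, and 159.7, 142 and 145 TPM with both, again without overlap (log2 difference -0.88, SE 0.13, adjusted p = 0.0067). NSDHL, the next sterol decarboxylase, was at 132, 109.5 and 134 TPM without treatment, 122, 141 and 121 TPM with CX3CL1, 64.7, 56.5 and 62.95 TPM with IFN-γ, and 69.99, 64.8 and 65.6 TPM with both (log2 difference -0.92, SE 0.12, adjusted p = 0.0031).

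IDI1, which interconverts the isopentenyl units, had the widest fall of the 12. Its levels were 67.5, 52.5 and 57.4 TPM without treatment, 57.8, 99.7 and 56.2 TPM with CX3CL1, 22.5, 27.4 and 27.9 TPM with IFN-γ, and 22.8, 38.6 and 29.6 TPM with both. The CX3CL1 replicate 2 library was far above the other CX3CL1 libraries, and no library with both agents reached the lowest of them (log2 difference -1.18, SE 0.25, adjusted p = 0.032). SQLE, the squalene epoxidase and a rate-limiting step, was at 352, 251 and 290.1 TPM without treatment, 308, 264 and 258 TPM with CX3CL1, 200.05, 161 and 162 TPM with IFN-γ, and 186, 167 and 164 TPM with both (log2 difference -0.68, SE 0.13, adjusted p = 0.021). LSS, which closes squalene epoxide into lanosterol, was at 38.4, 32.3 and 34.1 TPM without treatment, 39.8, 32.3 and 36.1 TPM with CX3CL1, 23.00, 18.6 and 19.5 TPM with IFN-γ, and 20.4, 18.8 and 19.3 TPM with both (log2 difference -0.85, SE 0.13, adjusted p = 0.0057). Neither SQLE nor LSS had a library with IFN-γ as high as the lowest without it. MVD, the mevalonate diphosphate decarboxylase, had its lowest library in replicate 2 of every group, and was at 73.5, 55.3 and 73.01 TPM without treatment, 79.9, 50.6 and 74.1 TPM with CX3CL1, 44.3, 28.1 and 32.5 TPM with IFN-γ, and 41.3, 27.8 and 32.2 TPM with both (log2 difference -0.99, SE 0.20, adjusted p = 0.028). INSIG1, itself a target of SREBP, was at 155, 92.3 and 128 TPM without treatment, 121, 96.5 and 101 TPM with CX3CL1, 78.1, 56.3 and 67.1 TPM with IFN-γ, and 63.7, 51.7 and 63.4 TPM with both, with a high first untreated library and no overlap (log2 difference -0.82, SE 0.14, adjusted p = 0.013). In limma fits that left out 1 library, IDI1 lost its call without CX3CL1 replicate 2 or 3 or IFN-γ + CX3CL1 replicate 1 or 3 (adjusted p = 0.052 to 0.15), SQLE lost its call without CX3CL1 replicate 1 or 3 or IFN-γ + CX3CL1 replicate 2 or 3 (adjusted p = 0.061 to 0.14), MVD lost its call without CX3CL1 replicate 1 or 3 or IFN-γ + CX3CL1 replicate 2 or 3 (adjusted p = 0.078 to 0.12), and INSIG1 lost its call without CX3CL1 replicate 1 or IFN-γ + CX3CL1 replicate 2 (adjusted p = 0.051 to 0.054). PMVK was also called (log2 difference -0.69, SE 0.13, adjusted p = 0.016). It lost its call in limma without CX3CL1 replicate 1 or 3 or IFN-γ + CX3CL1 replicate 2 or 3 (adjusted p = 0.066 to 0.092).

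**Figure D3:**
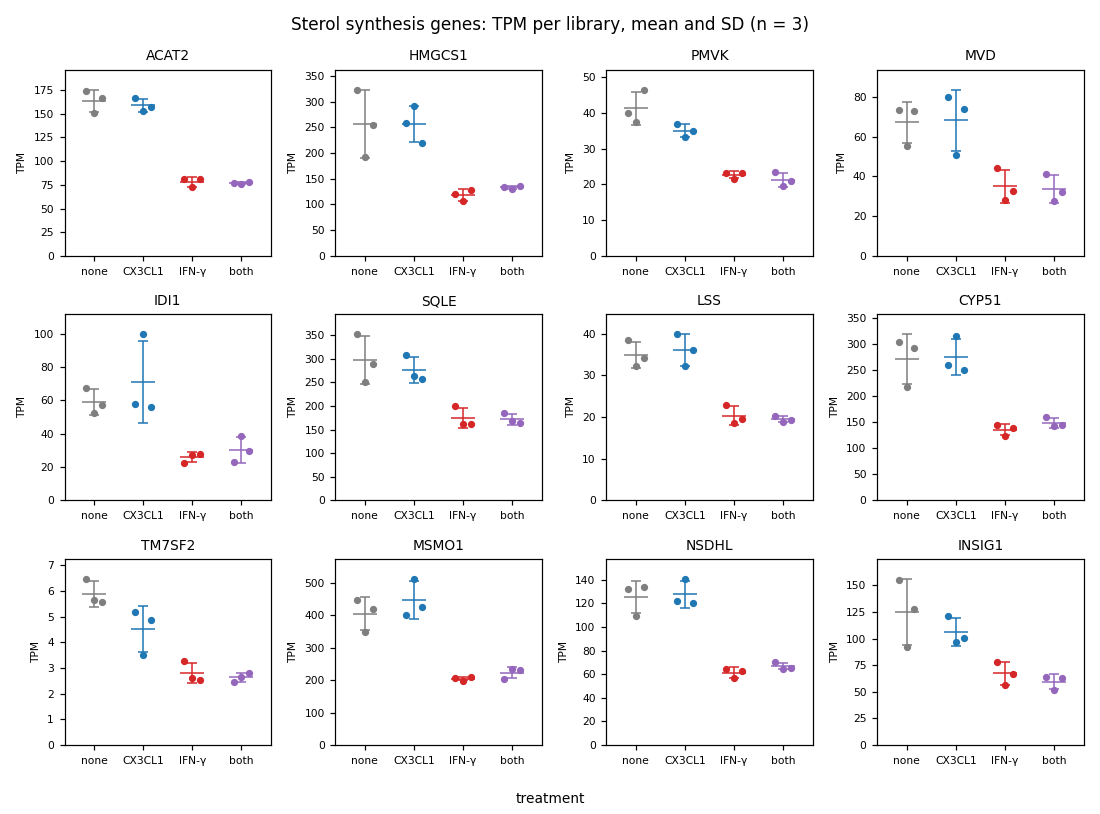
Dot plots of TPM in each library for the 12 sterol genes in pathway order with INSIG1 last, by treatment (no treatment, CX3CL1, IFN-γ, both), with the mean and SD of 3 libraries. In each panel the 6 libraries with IFN-γ lie below the 6 without it, and the CX3CL1 libraries lie near the untreated ones, with a median difference between those groups of 0.01 over the 12 genes. The separation of the IFN-γ from the untreated libraries was fixed by the choice of the genes.

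A list of 24 genes of cholesterol synthesis and uptake held 21 that were tested, 10 of them among the 81. All 21 had a negative difference with CX3CL1 present, with a median of -0.64 against 0.04 over all genes, 13 were called lower and none higher, and with the replicate block 17 were called lower. The list overlaps the 81 genes, so its count is not independent of their choice. FDPS (log2 difference -0.64, SE 0.14, adjusted p = 0.036) and FDFT1 (log2 difference -0.61, SE 0.12, adjusted p = 0.027), which make farnesyl diphosphate and squalene, were called lower and are not among the 81. HSD17B7, a sterol ketone reductase, met the difference of the rule but had overlapping libraries, and was called lower (log2 difference -0.75, SE 0.17, adjusted p = 0.042). Over all limma fits, the adjusted p was 0.0022 to 0.16 for FDPS, 0.0027 to 0.145 for FDFT1 and 6.3e-04 to 0.21 for HSD17B7. None of these genes kept its call in every fit.

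Of the regulators, SREBF2 was at 126, 128 and 112 TPM without treatment, 141, 110.4 and 128 TPM with CX3CL1, 109.6, 98.8 and 105 TPM with IFN-γ, and 101, 101 and 108 TPM with both and was not called (log2 difference -0.29, SE 0.13, adjusted p = 0.41). SREBF1 differed by -0.02 (SE 0.15) and SCAP by 0.02 (SE 0.13), neither of them called. ABCA1, which exports cholesterol from cells and is induced by sterols, was called higher (log2 difference 0.87, SE 0.16, adjusted p = 0.018), at 16.3, 13.4 and 12.6 TPM without treatment, 10.7, 13.6 and 9.88 TPM with CX3CL1, 25.7, 18.1 and 24.1 TPM with IFN-γ, and 23.9, 18.2 and 22.7 TPM with both. The adjusted p of ABCA1 was 0.0035 to 0.145 over all limma fits, so its call was not kept in every fit. CH25H, which makes 25-hydroxycholesterol, was listed at 0 in all 12 libraries. SREBF1, SCAP, ABCA1 and CH25H were picked after the members were known.

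Of 7 genes of lipid and central metabolism, 4 were called lower (7 with the replicate block), with a median difference of -0.81 and no overlap of the CX3CL1 groups in any of them. ELOVL6, a fatty acid elongase, was at 104, 91.3 and 94.6 TPM without treatment, 73.4, 99.5 and 65.7 TPM with CX3CL1, 40.7, 48.1 and 38.2 TPM with IFN-γ, and 40.9, 47.7 and 38.3 TPM with both (log2 difference -0.88, SE 0.17, adjusted p = 0.023). ACSS2, which makes cytosolic acetyl-CoA from acetate, fell from 11.1 ± 1.98 to 5.59 ± 0.710 TPM (SD, n = 3, log2 difference -0.87, SE 0.16, adjusted p = 0.018). ACAT1, the mitochondrial thiolase, was at 63.7, 66.1 and 68.1 TPM without treatment, 51.9, 69.2 and 59.99 TPM with CX3CL1, 31.5, 38.4 and 36.3 TPM with IFN-γ, and 31.2, 37.4 and 34.3 TPM with both (log2 difference -0.79, SE 0.14, adjusted p = 0.016). KHK, the ketohexokinase of fructose use, was the other gene called (log2 difference -0.81, SE 0.15, adjusted p = 0.017). PTGDS, a prostaglandin D synthase, was low, at 5.03, 0.805 and 0.824 TPM without treatment, 5.46, 1.04 and 1.01 TPM with CX3CL1, 0.227, 0.0731 and 0.0722 TPM with IFN-γ, and 0.129, 0 and 0 TPM with both. Its first library was high in both groups without IFN-γ, it was listed at 0 in 2 libraries with both agents, and it was called with the replicate block and not without (log2 difference -1.52, SE 0.40, adjusted p = 0.093, and 0.0039 with the replicate block, 0.0012 to 0.35 over its alternatives). IDH1 (cytosolic isocitrate dehydrogenase, -0.65) and PLA2G7 (platelet-activating factor acetylhydrolase, -0.51) were called with the block alone. When 1 library was left out, each of the 4 called genes was called in 3 of 6 limma fits. ACAT1 and KHK lost the call without CX3CL1 replicate 3 or IFN-γ + CX3CL1 replicate 1 or 3, ELOVL6 without CX3CL1 replicate 1 or IFN-γ + CX3CL1 replicate 1 or 3, and ACSS2 without CX3CL1 replicate 1 or IFN-γ + CX3CL1 replicate 1 or 2 (adjusted p = 0.053 to 0.11 over the 4 genes).

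Another 7 genes act in detoxification, and 4 of them were called lower (7 with the block, median -0.80). MGST3, a microsomal glutathione transferase, was at 94.05, 116 and 105 TPM without treatment, 72.9, 72.5 and 70.4 TPM with CX3CL1, 52.4, 53.3 and 36.3 TPM with IFN-γ, and 29.2, 39.7 and 24.8 TPM with both. Untreated libraries were the highest, those with CX3CL1 came next without overlap, and both IFN-γ groups lay below them (log2 difference -1.20, SE 0.17, adjusted p = 0.0039). CES1G, a carboxylesterase, was at 22.2, 18.2 and 15.9 TPM without treatment, 29.2, 14.2 and 15.3 TPM with CX3CL1, 7.44, 6.43 and 5.04 TPM with IFN-γ, and 6.35, 6.65 and 5.22 TPM with both, where 1 CX3CL1 library was high and the IFN-γ groups were tight (log2 difference -1.47, SE 0.24, adjusted p = 0.0095). CES2G, of the same enzyme class, was called at low levels (log2 difference -0.80, SE 0.16, adjusted p = 0.028), and GSTM1, a cytosolic glutathione transferase, at higher ones (log2 difference -0.63, SE 0.14, adjusted p = 0.047). CES1G and GSTM1 belong to clusters of similar genes, and how reads shared by such copies were counted is not given in the sources used here, so their levels are uncertain. CES2G (adjusted p = 0.052 to 0.14) and GSTM1 (0.062 to 0.28) lost their calls in each of the 6 limma fits that left out 1 library. EPHX1, the microsomal epoxide hydrolase, was at 217, 107 and 123 TPM without treatment, 184, 77.7 and 78.3 TPM with CX3CL1, 99.7, 54.2 and 47.1 TPM with IFN-γ, and 86.4, 39.5 and 34.6 TPM with both. Replicate 1 was the highest library in every group, with CX3CL1 present the groups overlapped although each numbered pair was lower, and the call was made with the block (log2 difference -1.07, SE 0.39, adjusted p = 0.26, and 1.5e-04 with the replicate block, 2.7e-05 to 0.65 over its alternatives). ALDH3A1, an aldehyde dehydrogenase, and RIDA, a deaminase of reactive imines, were also called with the block alone. The methionine salvage, polyamine and adenosine enzymes MTAP, SMS and ADK did not overlap with CX3CL1 present, and 0 of the 3 were called without the block (3 at an unadjusted p under 0.05 in limma) and 3 with it, with differences of -0.61, -0.76 and -0.76.

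Secreted proteins made up 8 of the 81, and 6 were called lower (7 with the block), with the lowest median of the named groups, -0.97. CPE, carboxypeptidase E, which trims peptide hormones, was at 117, 107 and 91.7 TPM without treatment, 95.1, 105 and 77.1 TPM with CX3CL1, 53.7, 49.8 and 44.04 TPM with IFN-γ, and 39.2, 46.1 and 37.3 TPM with both. Libraries with both agents were below those with CX3CL1, while the separation without CX3CL1 was fixed by the choice of the genes. CPE had the lowest adjusted p outside the sterol genes (log2 difference -1.15, SE 0.15, adjusted p = 0.0029). SERPINF1, pigment epithelium-derived factor, an inhibitor of vessel growth, was at 54.8, 31.9 and 53.7 TPM without treatment, 46.97, 35.5 and 42.9 TPM with CX3CL1, 22.8, 14.3 and 16.9 TPM with IFN-γ, and 27.3, 14.8 and 17.4 TPM with both (log2 difference -1.08, SE 0.21, adjusted p = 0.025). OMD, osteomodulin, a leucine-rich proteoglycan, was at 18.7, 7.02 and 14.9 TPM without treatment, 8.12, 10.7 and 6.30 TPM with CX3CL1, 4.69, 3.86 and 4.26 TPM with IFN-γ, and 3.99, 3.36 and 2.06 TPM with both (log2 difference -1.18, SE 0.23, adjusted p = 0.021). BPIFB4, a BPI-fold protein, was low and fell from 2.90 ± 0.979 to 0.686 ± 0.272 TPM (SD, n = 3, log2 difference -1.19, SE 0.22, adjusted p = 0.02). LTBP3, which binds latent TGF-β, was at 36.9, 48.00 and 42.8 TPM without treatment, 33.1, 32.02 and 35.98 TPM with CX3CL1, 24.2, 24.5 and 21.00 TPM with IFN-γ, and 20.5, 20.1 and 17.8 TPM with both (log2 difference -0.76, SE 0.12, adjusted p = 0.0088). For SERPINF1, OMD and LTBP3 the highest library with both agents was below the lowest with CX3CL1. KLK10, a secreted kallikrein-type protease, was the other gene called (log2 difference -0.87, SE 0.15, adjusted p = 0.012). In limma fits that left out 1 library, SERPINF1 lost its call without CX3CL1 replicate 1 or 3 or IFN-γ + CX3CL1 replicate 2 or 3 (adjusted p = 0.056 to 0.095), OMD lost its call without CX3CL1 replicate 1 or 2 or IFN-γ + CX3CL1 replicate 3 (adjusted p = 0.06 to 0.071), BPIFB4 lost its call without CX3CL1 replicate 1 or 3 or IFN-γ + CX3CL1 replicate 2 or 3 (adjusted p = 0.052 to 0.095), KLK10 lost its call without replicate 3 of either group (adjusted p = 0.061 to 0.065), and LTBP3 lost its call without IFN-γ + CX3CL1 replicate 3 (adjusted p = 0.07).

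CTGF, a matricellular protein and a target of YAP and TEAD, was not called without the block. It was at 41.9, 31.3 and 34.02 TPM without treatment, 32.2, 28.1 and 20.4 TPM with CX3CL1, 17.4, 22.5 and 14.01 TPM with IFN-γ, and 14.8, 19.1 and 10.99 TPM with both, where the highest library with both agents came close to the lowest with CX3CL1 (log2 difference -0.81, SE 0.22, adjusted p = 0.1, and 0.003 with the replicate block, 8.2e-04 to 0.37 over its alternatives). Of lists fixed for TGF-β and BMP (25 tested) and for YAP and TEAD (14 tested), limma called 1 gene and 0 genes lower (2 and 3 at an unadjusted p under 0.05), and 1 gene each higher. With the block, 1 and 3 genes were lower, and 4 and 1 higher. The list medians, 0.08 and 0.00, stood beside 0.04 over all genes.

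CCL17, a chemokine that binds the receptor CCR4 on regulatory and Th2 T cells, had the widest fall of the 81 with CX3CL1 present. It was measured at 4.55, 1.71 and 2.77 TPM without treatment, 19.1, 5.89 and 13.3 TPM with CX3CL1, 1.22, 0.169 and 0.167 TPM with IFN-γ, and 5.22, 0.805 and 1.17 TPM with both. CX3CL1 libraries were the highest, each above each untreated library, and the libraries with both agents lay below them, the first just under the lowest (log2 difference -2.11, SE 0.48, adjusted p = 0.0497). It stood at the edge of the threshold: CCL17 lost its call without CX3CL1 replicate 1 or 3 or IFN-γ + CX3CL1 replicate 2 or 3 (adjusted p = 0.093 to 0.18), and the adjusted p was 3.4e-06 to 0.31 over its alternatives, which include the replicate block. Without CX3CL1 the same gene was at 1.22 TPM or less in every IFN-γ library. H60B, a ligand of the NK cell receptor NKG2D, was at 11.1, 16.9 and 16.7 TPM without treatment, 6.56, 14.2 and 7.92 TPM with CX3CL1, 5.18, 7.39 and 5.11 TPM with IFN-γ, and 7.66, 6.49 and 6.35 TPM with both. Without CX3CL1 the IFN-γ libraries were lower by the choice of the gene (-1.20), but with CX3CL1 present the groups overlapped and it was not called (log2 difference -0.37, SE 0.24, adjusted p = 0.6, and 0.35 with the replicate block). H60B is 1 of several similar genes, so its reads may be shared. IGIP, an IgA-inducing protein, was called lower (log2 difference -0.69, SE 0.13, adjusted p = 0.018), and lost the call in limma without CX3CL1 replicate 1 or 3 or IFN-γ + CX3CL1 replicate 2 or 3 (adjusted p = 0.062 to 0.12).

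**Figure D4:**
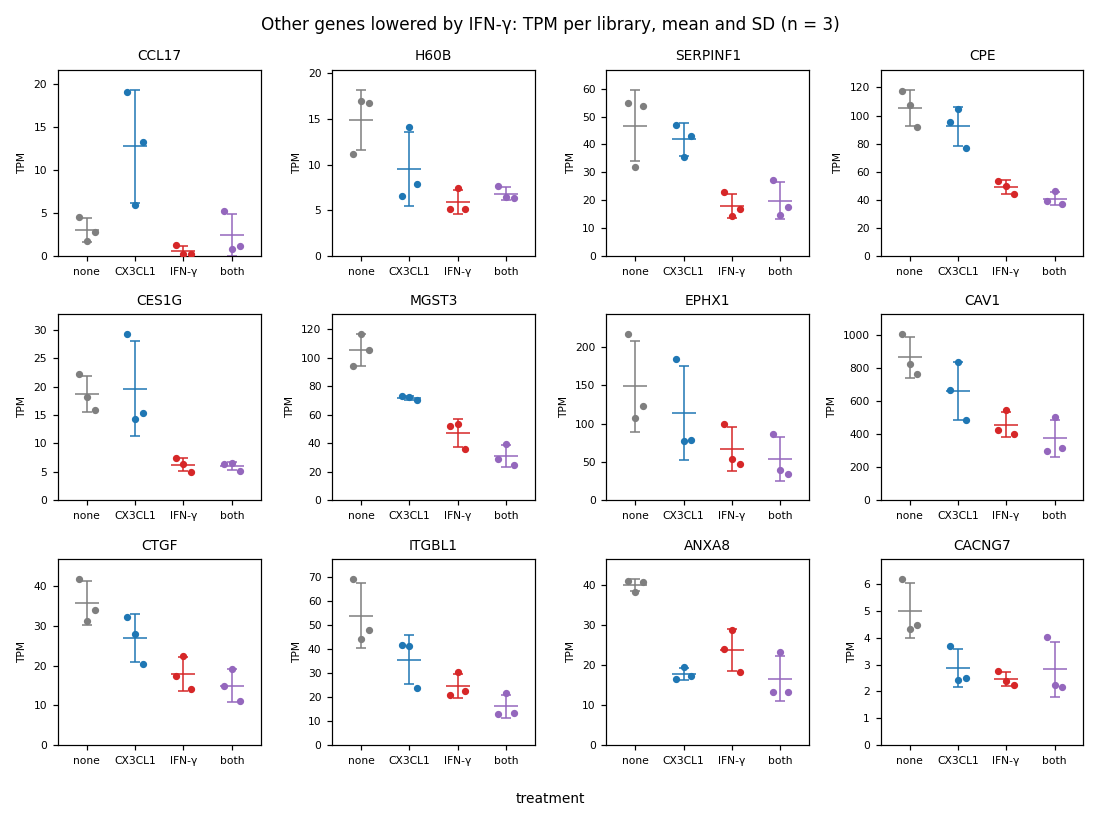
Dot plots of TPM in each library for 12 other genes of the 81 (immune and secreted, detoxification, surface and matrix, channel), by treatment, with the mean and SD of 3 libraries. CCL17 is highest with CX3CL1, CES1G and CPE separate by IFN-γ alone, EPHX1 has a high first replicate in every group, and ANXA8 and CACNG7 are low with CX3CL1 already. In all 12 panels the IFN-γ libraries lie below the untreated ones by the choice of the genes.

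The largest group by number was 18 genes of the cell surface and cytoskeleton, of which 2 were called lower and 13 with the block (median -0.63). ITGBL1, an integrin beta-like protein, was at 69.4, 44.3 and 48.02 TPM without treatment, 41.6, 41.4 and 23.9 TPM with CX3CL1, 20.9, 30.5 and 22.5 TPM with IFN-γ, and 12.9, 21.8 and 13.6 TPM with both and was called near the threshold (log2 difference -1.09, SE 0.25, adjusted p = 0.0497), and ITGBL1 lost its call without CX3CL1 replicate 1 or 2 or IFN-γ + CX3CL1 replicate 1 or 3 (adjusted p = 0.13 to 0.22). CDH26, a cadherin, was the other (log2 difference -0.98, SE 0.20, adjusted p = 0.03), and it kept its call in 1 of the 6 limma fits, that without IFN-γ + CX3CL1 replicate 2 (adjusted p = 0.054 to 0.11 in the others). CAV1, caveolin-1, the coat protein of caveolae and the most abundant of the 81, was at 1004, 825 and 763 TPM without treatment, 665, 835 and 484 TPM with CX3CL1, 426, 544 and 402 TPM with IFN-γ, and 299, 505 and 319 TPM with both. The IFN-γ libraries were below the untreated ones, but with CX3CL1 present the second library with both agents was above the lowest CX3CL1 library, and the call came with the block (log2 difference -0.83, SE 0.24, adjusted p = 0.15, and 0.0035 with the replicate block, 9.6e-04 to 0.45 over its alternatives). CAV2, its partner in caveolae, also had its highest library in replicate 2 of both CX3CL1 groups, at 254, 203 and 191 TPM without treatment, 169, 296 and 152 TPM with CX3CL1, 116, 139 and 127 TPM with IFN-γ, and 86.95, 187 and 115 TPM with both (log2 difference -0.67, SE 0.30, adjusted p = 0.41, and 0.011 with the replicate block). CRIM1, a transmembrane protein that binds BMPs, was at the edge of the rule and was called with the block (log2 difference -0.61, SE 0.17, adjusted p = 0.12, and 0.012 with the replicate block). MYLK, myosin light chain kinase, was called in neither (log2 difference -0.41, SE 0.17, adjusted p = 0.35, and 0.11 with the replicate block). The rest of the group runs over cadherins and their partners (CDH13, CTNNAL1), adhesion and actin proteins (NEDD9, SORBS3, TNNT2, NEXN, ARHGAP18), surface proteases (ADAM12, ADAM33) and others (CD109, LYPD5, ANXA8), with differences from -0.92 to -0.14.

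ANXA8, an annexin, showed least of the fall in this group once CX3CL1 was present. It was at 40.96, 38.3 and 40.9 TPM without treatment, 16.4, 19.5 and 17.4 TPM with CX3CL1, 23.9, 28.8 and 18.3 TPM with IFN-γ, and 13.4, 23.2 and 13.3 TPM with both. The untreated libraries were the highest by far, the CX3CL1 libraries were as low as those with IFN-γ or lower, and both agents together were no lower than CX3CL1 beyond the spread (log2 difference -0.14, SE 0.20, adjusted p = 0.85, and 0.67 with the replicate block). NEXN, the actin-binding nexilin, had 1 high CX3CL1 library, at 62.8, 59.6 and 69.2 TPM without treatment, 34.7, 79.97 and 35.6 TPM with CX3CL1, 35.6, 40.1 and 35.3 TPM with IFN-γ, and 47.2, 38.7 and 28.7 TPM with both (log2 difference -0.30, SE 0.30, adjusted p = 0.77, and 0.5 with the replicate block). The difference of NEXN turned to 0.09 without CX3CL1 replicate 2, the library least alike its group. Among 5 genes of channels and release, limma called 0 (3 at an unadjusted p under 0.05) and 2 with the block. CACNG7, a calcium channel gamma subunit, had the smallest difference of the 81 (-0.04, SE 0.22), at 6.20, 4.34 and 4.49 TPM without treatment, 3.68, 2.42 and 2.48 TPM with CX3CL1, 2.75, 2.40 and 2.25 TPM with IFN-γ, and 4.01, 2.26 and 2.18 TPM with both, and it turned positive in 3 of 6 leave-one-out fits (0.11 without CX3CL1 replicate 1, 0.06 and 0.08 without IFN-γ + CX3CL1 replicate 2 or 3). KCNJ2 (an inward rectifier potassium channel, -0.54), AQP1 (a water channel, -0.57), CPLX2 (complexin, -0.46) and CLCA3A1 (a chloride channel regulator, -0.71) had wider differences.

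In the remaining 14 named genes, 5 were called lower (8 with the block). RERG, a small GTPase of the RAS family, was at 5.71, 3.00 and 5.23 TPM without treatment, 3.12, 1.90 and 2.41 TPM with CX3CL1, 1.29, 0.556 and 0.769 TPM with IFN-γ, and 0.756, 0.440 and 0.860 TPM with both (log2 difference -1.04, SE 0.19, adjusted p = 0.018). KLHL30, a kelch protein, was at 7.61, 4.64 and 5.16 TPM without treatment, 4.78, 2.16 and 3.11 TPM with CX3CL1, 2.89, 2.31 and 1.32 TPM with IFN-γ, and 0.986, 1.11 and 0.881 TPM with both, lowest with both agents (log2 difference -1.08, SE 0.22, adjusted p = 0.028). KLHDC8A, another kelch protein (log2 difference -0.91, SE 0.16, adjusted p = 0.016), MUM1L1, a PWWP domain protein (log2 difference -1.06, SE 0.17, adjusted p = 0.0084), and CCNG1, cyclin G1, a p53 target (log2 difference -0.90, SE 0.18, adjusted p = 0.025), were the others called. CCNG1 was abundant, at 303, 198 and 245 TPM without treatment, 242, 285 and 183 TPM with CX3CL1, 137, 112 and 112 TPM with IFN-γ, and 138, 128 and 109 TPM with both. RNF128, the ubiquitin ligase GRAIL, overlapped between the CX3CL1 groups and was not called (log2 difference -0.36, SE 0.26, adjusted p = 0.66, and 0.16 with the replicate block), nor was LACTB2, an endoribonuclease at the edge of the rule (log2 difference -0.50, SE 0.19, adjusted p = 0.29, and 0.06 with the replicate block). When 1 library was left out, RERG lost its call without CX3CL1 replicate 1 or 3 or IFN-γ + CX3CL1 replicate 1 or 2 (adjusted p = 0.052 to 0.074), CCNG1 lost its call without any library but CX3CL1 replicate 3 (adjusted p = 0.051 to 0.12), KLHDC8A lost its call without CX3CL1 replicate 3 or IFN-γ + CX3CL1 replicate 1 or 3 (adjusted p = 0.066 to 0.081), and KLHL30 lost its call without CX3CL1 replicate 1 or 3 or IFN-γ + CX3CL1 replicate 1 or 3 (adjusted p = 0.064 to 0.11). Of 4 gene models without a name, limma called 0 (3 at an unadjusted p under 0.05) and 3 with the block. GM20594 had the widest fall without CX3CL1, but it was listed at 0 in 3 libraries, at 7.13, 5.75 and 7.24 TPM without treatment, 10.4, 0 and 11.02 TPM with CX3CL1, 2.78, 0 and 1.79 TPM with IFN-γ, and 0, 1.45 and 4.46 TPM with both, and its groups overlapped with CX3CL1 present (log2 difference -1.12, SE 0.90, adjusted p = 0.7, and 0.37 with the replicate block).

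With CX3CL1 alone, the same genes lay at uneven distances from their untreated levels. The comparison with untreated cells shares 3 libraries with the choice of the genes, which took genes high in those libraries, so the values are a description. The median of the 81 was -0.30 against -0.02 over all genes tested. In 29 of the 81 (35.8%) the CX3CL1 libraries lay below the untreated ones, against 5.41% of the genes tested, and in 1, CCL17, they lay above, against 5.46%. The sterol genes had a median of 0.01 and ran from -0.33 for TM7SF2 to 0.22 for IDI1, with 2 of 12 below (TM7SF2 and PMVK). The purine and polyamine enzymes stood at -0.08 to 0.03. Surface and cytoskeletal genes had a median of -0.48 with 9 of 18 below, and the channel genes one of -0.64 with 4 of 5 below. Among the widest differences were those of KAZALD1, a Kazal-type inhibitor domain protein (-1.21), ANXA8 (-1.13), AQP1 (-0.87) and CCL17 (1.71). KAZALD1 went from 12.4, 14.5 and 10.4 TPM without treatment to 5.43, 5.44 and 3.64 TPM with CX3CL1, 5.03, 6.89 and 2.85 TPM with IFN-γ and 3.48, 3.71 and 2.44 TPM with both, so that the last 3 groups overlapped. Whether the roles differ in this was not tested.

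With IFN-γ present, 60 of the 81 genes lay within 0.3 of their IFN-γ levels on the log2(TPM + 1) scale when CX3CL1 was added. The median difference of IFN-γ + CX3CL1 from IFN-γ was -0.09, against -0.0015 over all genes tested, and 60 of the 81 were under 0. The difference ran from -0.64 for KLHL30 to 1.00 for CCL17, and is again a description that shares 3 libraries with the choice. The libraries with both agents lay below the IFN-γ libraries in 3 genes (7.96% of the genes tested did) and above them in 3 (8.97%). The 3 below were SORBS3, KLHL30 and LTBP3, and the 3 above ALDH3A1, HMGCS1 and NSDHL. ALDH3A1 went from 3.24, 3.28 and 1.26 TPM with IFN-γ to 6.40, 4.99 and 3.86 TPM with both, and HMGCS1 by 0.17 on the log2(TPM + 1) scale.

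**Figure D5:**
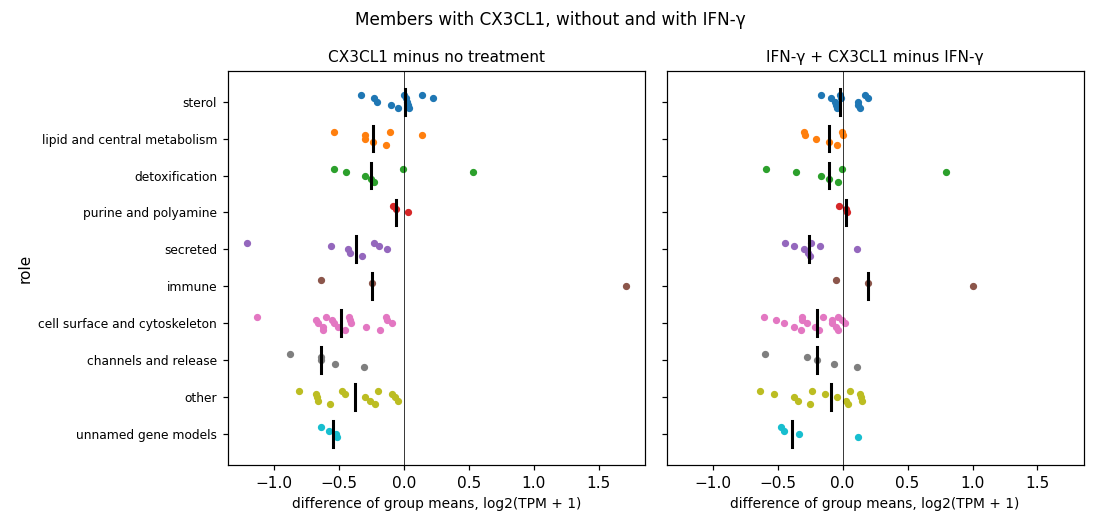
Strip plots of the difference in group means of log2(TPM + 1) for the 81 genes by role, CX3CL1 minus no treatment (left) and IFN-γ + CX3CL1 minus IFN-γ (right), with a black bar at the median of each role. On the left the sterol bar lies at 0.01 and the surface and cytoskeleton bar at -0.48; on the right the sterol bar lies at -0.02 and the surface bar at -0.20, and CCL17 is the highest point in both.

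The 81 genes lie on 19 chromosomes, and 78 are annotated as protein coding, 2 as lincRNA and 1 (GM16537) as antisense (GENCODE vM21, GRCm38). Whether strand was used in the counting is not given in the sources used here, so GM16537 cannot be told apart from the gene on the other strand. The X chromosome held 7 of them (8.64%), against 3.03% of the genes tested. Neighbouring members were CAV2 (chr6:17281185-17289115) and CAV1 (chr6:17306335-17341452), 17.2 kb apart, CPE (chr8:64592542-64693054) and MSMO1 (chr8:64718139-64733792), 25.1 kb apart, and PHEX and SMS on X, 28.5 kb apart. Median GC content was 48.0% against 49.4% over the genes tested, and median transcript length 2908 against 3352 bases. In the promoter windows, the GAS form TTCNNNGAA was in 3 of 62 (KLK10, PLA2G7 and CCL17, 4.84%) against 8.30% of the genes tested, and the interferon response core GAAANNGAA in 4 of 62 (GSTM1, CLCA3A1, MYLK and FBXO36, 6.45%) against 8.55%. The letters GGGCGG, bound by SP1, were in 38 of 62 (61.3%) against 70.9%, and in 10 of the 11 sterol genes. Both strands were searched, and no test was made of these shares.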

How the data were processed

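RNA from CT26 cells was sequenced in 4 groups of 3 biological replicates, which the labels name. Doses and time come from the study's figure legend. Per the labels, strand-specific mRNA libraries were prepared, and the submitters' processing notes name STAR 2.7.3a, mm10 and DESeq2 1.22.1. The deposited values are TPM made by the authors, and every library sums to 1000000. The step from counts to TPM, the annotation and any filter are not given in the sources used here, and counts were not analysed here. TPM keep no depth, which leaves counting error unknown, and a value of 0 can be a failed estimate. Precision is the spread between 3 replicates. A rise of abundant transcripts lowers the TPM of others. Of the symbols, 26 had been turned into dates and 2 names occurred more than once.

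The members and lists were chosen with earlier results of these data known, the role groups, the element TCACNCCA and 4 sterol regulators after the members were seen. The difference and separation used to choose the genes came from IFN-γ and untreated libraries, and the floor of 1 TPM from all 12, so the test was made between IFN-γ + CX3CL1 and CX3CL1. limma 3.58.1 in R 4.3.3 (lmFit, eBayes with an intensity trend) was run on log2(TPM + 1), a pseudocount of 1, over 10754 genes whose mean reached 1 TPM, with Benjamini-Hochberg adjustment and a threshold of 0.05. Differences on this scale understate the change of low genes. An exact two-sided permutation test of 3 against 3 libraries cannot go below 0.1 and was not used. The fit was tested on simulated data. Same-numbered CX3CL1 and IFN-γ + CX3CL1 libraries deviated together from their group means (correlations across genes 0.357, 0.361 and 0.449, each highest with its own number). The pairing rests on these correlations, since the labels do not say what a number shares.

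Named genes are the 12 members with the widest fall in the test, the 8 with the widest fall without CX3CL1, the 5 most abundant, the 5 with the smallest difference, the 3 on each side of the threshold, and members of the lists. Other members were named to complete the role groups, after their values were seen. Lists not described in the text (Wnt targets, matrix, contractile genes, ATF4 targets, cell cycle, ribosome biogenesis, hypoxia and glycolysis, receptor kinases, growth factors, guidance, Notch, immediate early and epithelial genes) had 0 genes called lower by limma, and 0 to 2 each at an unadjusted p under 0.05. GC content, length and coordinates came from GENCODE vM21 (GRCm38), and promoters from RefSeq (GRCm38.p6), which held 62 of the 81 genes. Alternatives were a pseudocount of 0.1, a mean of 0.2 TPM or no filter, median-ratio scaling, quantile normalization, all 12 libraries, no trend, the replicate block, GC and length centring in 10 bins each with the block, and leaving out each library. Tables were prepared with pandas 2.3.3.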

Additional observations from a re-analysis of the deposited data

How the results depend on the processing

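The direction of the members' median and of 32 of the 34 named genes was the same in each of the 16 alternative fits. The exceptions came when libraries were left out in turn, with -0.25 to 0.11 for CACNG7 and -0.50 to 0.089 for NEXN. Over the named genes and fits, 443 values kept their side of the threshold, 68 lost it, 29 gained it and 4 turned in sign. The members' median of -0.72 was -0.81 with a pseudocount of 0.1, -0.78 with median-ratio scaling, with or without the replicate block, -0.82 with quantile normalization, and -0.83 to -0.69 when 1 library was left out. Without a filter on low genes, 2 genes were called lower and 1 higher, and 1 member was called; the cause was not tested. With all 12 libraries in the fit, 105 genes were lower. The replicate block gave 161 genes lower, 545 higher and 64 members. GC and length centring with the block gave 300, 505 and 69, and median-ratio scaling with the block, added after seeing the data, 285, 474 and 71. Leaving out 1 library gave 21 to 59 genes lower, 178 to 261 higher and 13 to 28 members. The rule for the members was met by 134 genes after quantile normalization, and by 80 to 111 when 1 library was left out, of which 65 to 79 were among the 81. The 81 genes met it under both scalings and a pseudocount of 0.1. With 3 libraries a group and no depth, a call missed does not show that a gene did not change.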

Other observations

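Of the 10 genes that met the difference of the rule but whose IFN-γ and untreated libraries overlapped, several had a first replicate well above the others in every group. OGN, osteoglycin, a leucine-rich proteoglycan like OMD, was measured at 260.1, 36.4 and 81.2 TPM without treatment, 139.9, 46.5 and 46.3 TPM with CX3CL1, 46.9, 5.90 and 13.7 TPM with IFN-γ, and 36.9, 6.62 and 9.83 TPM with both. Every numbered pair was lower with IFN-γ, and with CX3CL1 present limma called it with the replicate block and not without (log2 difference -2.22, SE 0.58, adjusted p = 0.093, and 4.0e-06 with the replicate block). AGT, angiotensinogen, was at 7.85, 1.36 and 2.01 TPM without treatment, 5.52, 0.610 and 1.14 TPM with CX3CL1, 1.63, 0.290 and 0.287 TPM with IFN-γ, and 1.14, 0.230 and 0.311 TPM with both (log2 difference -0.90, SE 0.46, adjusted p = 0.47, and 0.028 with the replicate block). PRELP, another leucine-rich proteoglycan of the matrix, was at 6.46, 1.42 and 2.06 TPM without treatment, 7.78, 1.89 and 2.24 TPM with CX3CL1, 3.39, 0.712 and 0.559 TPM with IFN-γ, and 5.70, 0.788 and 1.02 TPM with both (log2 difference -0.59, SE 0.53, adjusted p = 0.74, and 0.03 with the replicate block). These 3 genes were picked after their values were seen, and what the first replicates share is not stated in the labels.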
